A study of Mus musculus with 12 samples.

Results

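Expression of 10 genes of the BCL-2 family was followed in 12 mouse progenitor clones, 6 of wild-type and 6 of Taz knockout genotype. The members were taken by symbol: the anti-apoptotic genes Bcl2, Bcl2l1, Bcl2l2 and Mcl1, the effectors Bax and Bak1, and the BH3-only genes Bid, Bbc3, Bcl2l11 and Pmaip1. All 10 were found among the 37583 Ensembl genes of the count tables, and all 10 passed the filter on low counts that left 11819 genes for testing. The clones derive from fetal liver of C57BL/6 embryos at day 15.5 and were each grown from a single cell. Both genotypes carry a retroviral fusion of estrogen receptor and Hoxb8, which blocks maturation of granulocyte-monocyte progenitors while estradiol is present. RNA was prepared from cells kept in 0.5 µM estradiol and stem cell factor (about 50 ng/ml), the cytokine on which they depend, so the values describe growing cells and not cells deprived of a survival factor. Taz encodes Tafazzin, the acyltransferase that remodels cardiolipin, a phospholipid of the inner mitochondrial membrane. Titles with the numbers 1 and 2 are wild type (1A to 1C, 2D to 2F), and those with 3 and 4 are knockout (3G to 3I, 4J to 4L). The sources do not say what this title number stands for, nor which allele removes Taz. If clones of 1 number share an embryo or parent culture, p-values over 12 clones are too small.

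BCL-2 family proteins decide whether the outer mitochondrial membrane stays intact. Effectors such as BAX and BAK oligomerize and open that membrane, which releases cytochrome c and leads to caspase activation. Anti-apoptotic proteins hold effectors and BH3-only proteins in check, and BH3-only proteins carry death signals to both. Myeloid progenitors are known to depend on MCL-1 for survival, and stem cell factor signalling through KIT is known to restrain BIM, the product of Bcl2l11.

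Libraries held from 18970252 to 27431544 reads in genes, and values below are read counts scaled to the library total after TMM normalization (CPM). The knockout label was checked on Taz itself, which stood at 39.2 CPM ± 2.58 (SD, n = 6) in wild type and 3.35 CPM ± 0.685 (n = 6) in knockout. All 10 markers of granulocyte-monocyte progenitors were present, including Kit, Cd34, Mpo and Cebpa, with a summed level of 12880 to 21873 CPM in wild type and 11878 to 19664 CPM in knockout. Markers of mature neutrophils, hepatocytes and erythroid cells each set 1 library apart. Over 10 mature neutrophil markers the sum was 1538 CPM in clone 2D, whereas the 5 remaining wild-type clones gave 22.1 to 115 CPM and the knockout clones 15.9 to 145 CPM. Clone 3G summed to 141 CPM over 4 hepatocyte markers, against at most 1.95 CPM in the other 11 clones. Clone 1A summed to 45.4 CPM over 5 erythroid markers, against 14.1 CPM in the next wild-type clone and at most 17.3 CPM in knockout. Mast cell and basophil markers had larger sums that differed between clones of both genotypes. In wild type they gave 1116 CPM in 2D, 1327 in 1A, 2516 to 2765 in 1B, 1C and 2F, and 4086 in 2E. Knockout clones gave 2191 CPM (3H) to 4954 CPM (4K). Monocyte and macrophage sums were 554 to 1177 CPM in wild type and 977 to 1808 CPM in knockout. Megakaryocyte sums were 62.4 to 221 CPM and 111 to 236 CPM. Over 6 pre-B cell markers the genotypes themselves differed, at 32.8 to 85.9 CPM in wild type and 6.08 to 28.5 CPM in knockout. Of the 5 tested, 2 (Cd79b, Igll1) fell at an adjusted p under 0.05, against 3.94% of all genes. The part of these cells in the results below was not tested. Each value is a mean over a culture, so fewer cells with a transcript and less transcript per cell cannot be told apart.

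Of the 10 members, 3 rose in knockout and 0 fell, by edgeR's quasi-likelihood test at an adjusted p under 0.05. They were Bbc3, Bid and Bax, all of the death-promoting side. Among all genes tested, 7.94% were called, 3.99% as higher and 3.94% as lower in knockout. At an unadjusted p under 0.05 there were 5 members, Bcl2 and Bcl2l11 in addition, against 23.7% of all genes. The genotypes did not overlap in 2 members, Bbc3 and Bid, where 5.38% of all genes did not overlap in either direction with 2.54% higher and 2.84% lower in knockout. Of the 4 anti-apoptotic members 0 were called, of the 2 effectors 1, and of the 4 BH3-only members 2. The median log2 fold change was 0.20 over the 10 members and -0.01 over all genes tested. Without clone 3G there were 2 called members, Bbc3 (0.85, adjusted p = 0.00194) and Bid (0.21, adjusted p = 0.0378), against 5.06% of all genes. The number of calls moved with the method, to 5 members by DESeq2 (12.4% of all genes), 5 by voom with clones of 1 title number as a correlated block (19.4%) and 1, Bbc3, when counts were summed over each title number (1.99%). The block correlation was negative (-0.17), which takes clones of 1 number as less alike than others. The blocked run thus makes no allowance for a shared origin.

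**Figure D1:**
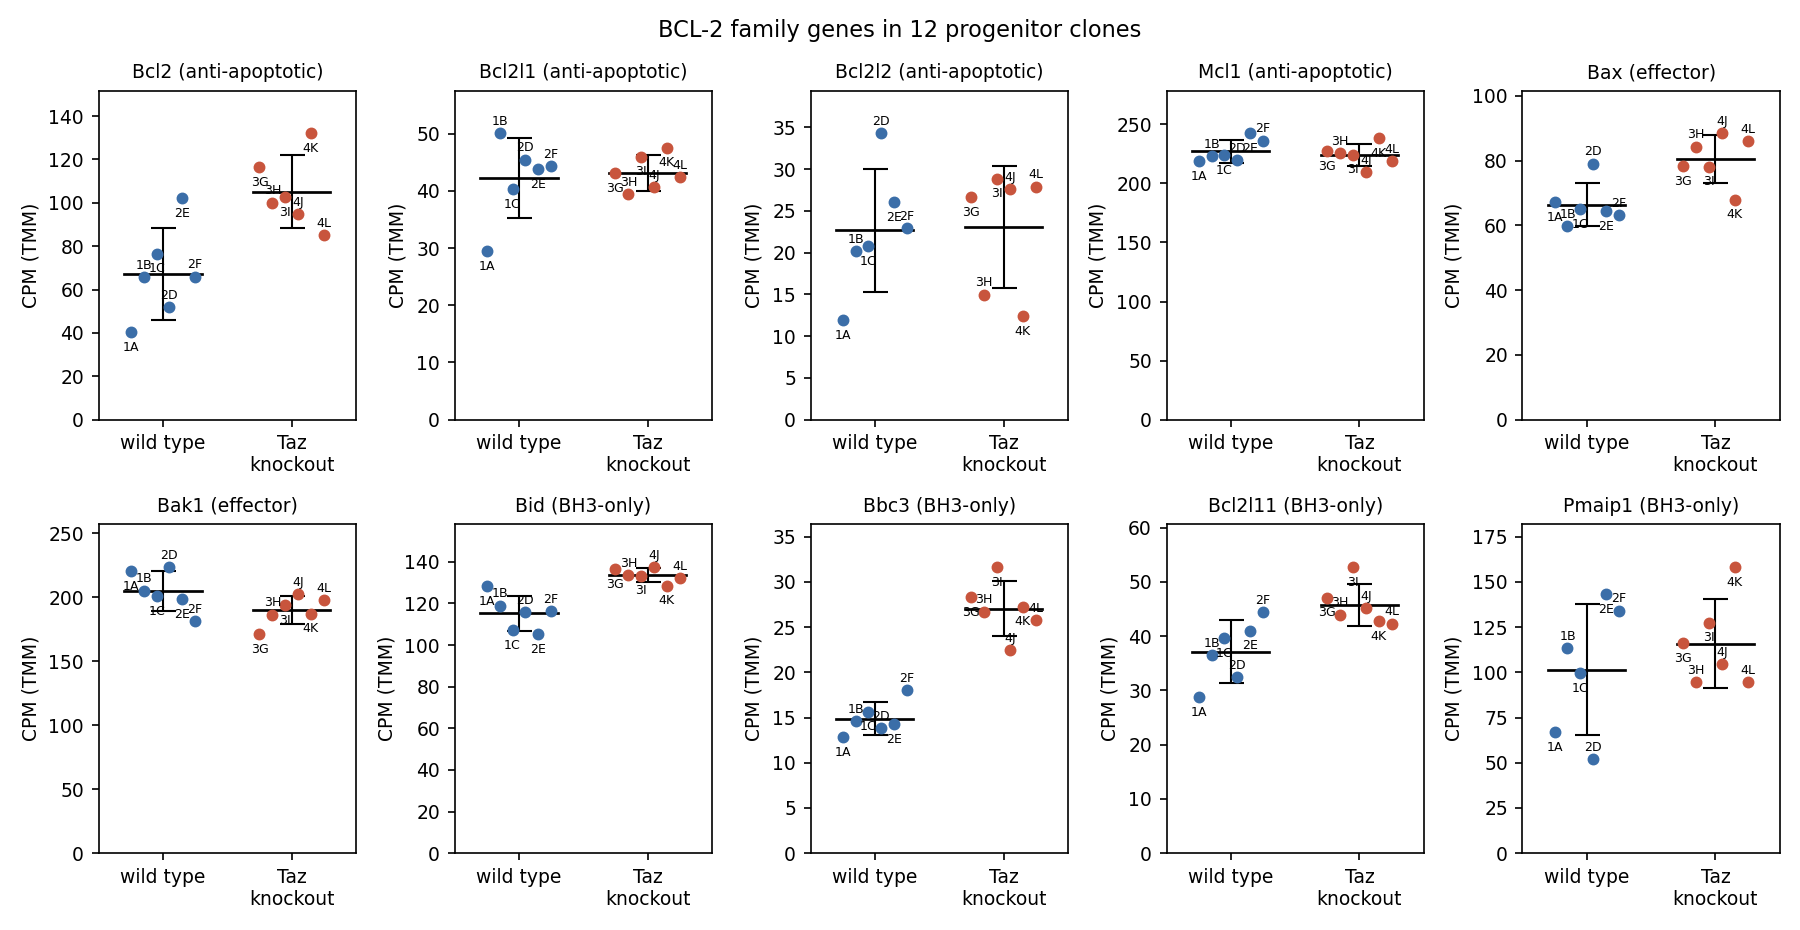
Level of each member (vertical axis, TMM-scaled CPM from 0) in wild-type and Taz knockout clones, with points labelled by clone and bars giving mean and SD of 6 clones. Every knockout clone lies above every wild-type clone for Bbc3 and Bid, and the genotypes overlap for the other 8 members.

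Bbc3, the gene of the BH3-only protein PUMA and a known target of p53, changed most. Its level was 12.9 CPM in the lowest wild-type clone (1A), 14.4 at the median and 18.05 in the highest (2F). In knockout it was 22.4 CPM in the lowest clone (4J), 27.0 at the median and 31.7 in the highest (3I). The lowest knockout clone thus lay above the highest wild-type clone. From 319 to 435 reads per library were behind the wild-type values and from 513 to 745 behind the knockout values. By edgeR the log2 fold change was 0.86 (SE 0.10, 95% interval 0.65 to 1.07, adjusted p = 0.000481), a 1.82-fold difference.

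Bid, whose product is cut by caspase-8 and then activates BAX and BAK, rose by a small and even amount. Wild-type clones ran from 105 CPM (2E) through a median of 116 to 128 CPM (1A). Knockout clones ran from 129 CPM (4K) through a median of 133 to 138 CPM (4J). The genotypes did not overlap, but 1A and 4K were almost at the same level (128.2 and 128.6 CPM). Knockout clones varied little, with a coefficient of variation of 2.39% against 7.22% in wild type. The log2 fold change was 0.21 (SE 0.04, 95% interval 0.12 to 0.31, adjusted p = 0.0147 by edgeR), a 1.16-fold difference. Bid shares 628 bases of exon, 17.7% of its own, with Bcl2l13 on the opposite strand, and reads were counted without strand. Bcl2l13 itself stood at 113 CPM in both genotypes (log2 fold change 0.01, SE 0.06, adjusted p = 0.949).

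Bax, which encodes a cytosolic effector and is another known p53 target, rose but with overlap. It was lowest at 59.8 CPM in 1B, 64.6 at the wild-type median and highest at 79.1 in 2D. Knockout clones lay between 68.0 CPM (4K) and 88.4 CPM (4J) with a median of 81.3. The overlap came from 2D, which lay within the knockout range, since the other 5 wild-type clones were below every knockout clone, and 3 of 6 knockout clones lay above every wild-type clone. Its log2 fold change was 0.28 (SE 0.08, 95% interval 0.11 to 0.44, adjusted p = 0.0441 by edgeR). The call of Bax was lost in 10 of 12 fits without 1 clone, 3G included, and held without 2D or 4K (adjusted p 0.00881 to 0.0945 over the 12 fits, with log2 fold changes from 0.25 to 0.34).

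Bak1, the effector that sits in the outer mitochondrial membrane, did not pass the test. Its wild-type range was 182 to 224 CPM with a median of 203, and its knockout range 171 to 203 CPM with a median of 191. Clone 3G was the lowest of all 12. The genotypes overlapped and the log2 fold change was -0.11 (SE 0.05, adjusted p = 0.246 by edgeR). Its 95% interval corresponds to fold values of 0.853 to 1.01.

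Bcl2, the founding anti-apoptotic member, had a larger difference than Bax or Bid but a wide spread. Wild-type clones ranged from 40.3 CPM (1A) through a median of 65.8 to 102 CPM (2E). Knockout clones ranged from 85.2 CPM (4L) through a median of 101 to 132 CPM (4K). Wild-type clone 2E lay among the knockout clones, and the other 5 wild-type clones lay below all of them. Between genotypes the log2 fold change was 0.65 (SE 0.19, 95% interval 0.23 to 1.07, adjusted p = 0.0609 by edgeR), so Bcl2 did not pass. Without clone 2E it did (0.81, adjusted p = 0.0148), the only 1 of 12 fits without 1 clone that called Bcl2. Over the 12 fits its adjusted p ran from 0.0148 to 0.117.

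Bcl2l11, the gene of BIM, was at 28.7 CPM in 1A, 38.1 at the wild-type median and 44.5 in 2F. In knockout it was at 42.3 CPM in 4L, 44.6 at the median and 52.8 in 3I. Wild-type clone 2F was within the knockout range and 3 of 6 knockout clones lay above it. Its log2 fold change was 0.30 (SE 0.10, 95% interval 0.08 to 0.52, adjusted p = 0.0923 by edgeR), short of the threshold. The interval leaves room for differences of 1.06-fold to 1.43-fold.

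Pmaip1, the gene of NOXA, a BH3-only protein that binds MCL-1, varied widely between clones of either genotype. It ranged from 52.0 CPM (2D) through a median of 106 to 143 CPM (2E) in wild type and from 94.4 CPM (4L) through a median of 110.4 to 158 CPM (4K) in knockout. Its coefficient of variation was 35.7% in wild type and 21.1% in knockout. The log2 fold change was 0.19 (SE 0.24, 95% interval -0.32 to 0.70, adjusted p = 0.678 by edgeR). The value moved with single clones, to 0.06 without 2D, 0.08 without 4K, 0.09 without 1A, 0.29 without 2F and 0.31 without 2E, and no fit called it.

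Mcl1, on which myeloid progenitors are known to depend, was the most even of the 10 genes in wild type and more variable than only Bid in knockout. Wild-type clones lay between 219 and 242 CPM and knockout clones between 209.7 and 238 CPM, with a coefficient of variation of 4.25% and 4.24%. The log2 fold change was -0.02 (SE 0.04, adjusted p = 0.788), and the 95% interval of -0.10 to 0.06 holds the difference to within fold values of 0.933 and 1.04.

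Bcl2l1, the gene of BCL-XL, stood at 42.2 CPM ± 7.01 (SD, n = 6) in wild type and 43.2 CPM ± 3.13 (n = 6) in knockout. Clone 1A was lowest at 29.4 CPM and 1B highest at 50.05 CPM, so that both ends of the range were wild type (log2 fold change 0.03, SE 0.11, adjusted p = 0.891). Bcl2l2, the gene of BCL-W, was at 22.7 CPM ± 7.36 and 23.0 CPM ± 7.32. It was low in 1A (11.9 CPM) and 4K (12.4 CPM) and high in 2D (34.3 CPM). Its 95% interval, -0.56 to 0.60 on the log2 scale, was the widest of the members.

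**Figure D2:**
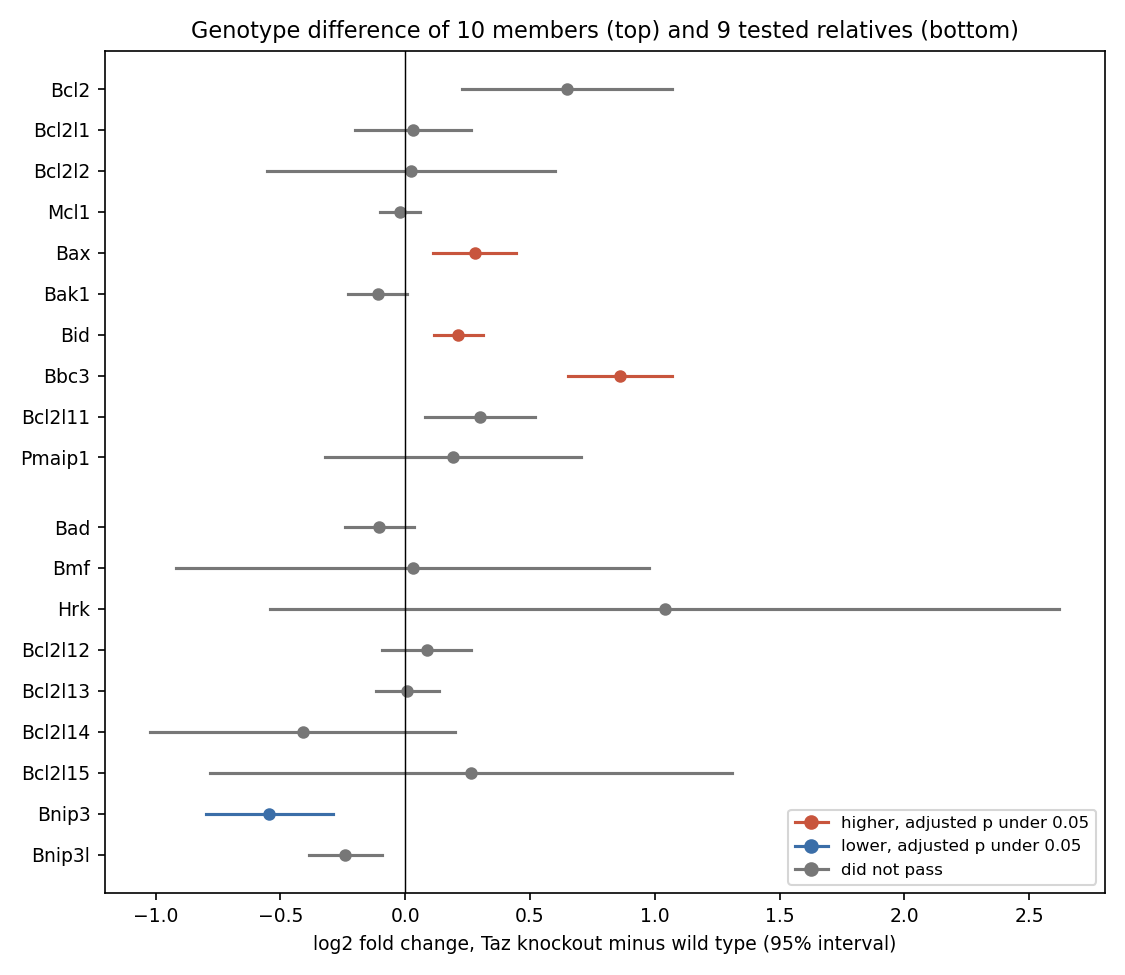
Log2 fold change between Taz knockout and wild type (horizontal axis) with 95% interval for the 10 members and 9 tested relatives, coloured by the result of edgeR's test. Bbc3 lies farthest right of the called genes at 0.86, Bnip3 is the called fall at -0.54, and the intervals of Bcl2 and Bcl2l11 exclude 0 although their adjusted p-values miss the threshold.

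Several members moved together across clones in an order that genotype does not give. In wild type, 1A and 2D had the lowest Bcl2 (40.3 and 51.9 CPM), the lowest Bcl2l11 (28.7 and 32.4 CPM) and the lowest Pmaip1 (67.1 and 52.0 CPM). They also had the highest level of the granule protease gene Elane, 372 and 827 CPM where no further wild-type clone exceeded 74.4 CPM. Elane was listed here among the progenitor markers. Their neutrophil marker sums, 115 and 1538 CPM, were the highest in wild type, but that of 1A lay within the knockout range (15.9 to 145 CPM). Clone 2E was at the other end, with the highest wild-type Bcl2 and Pmaip1 and the lowest Elane (23.4 CPM). The knockout clones gave a like order for Bcl2. Clone 4L had the highest Elane (147 CPM) with the lowest Bcl2 (85.2 CPM), and 4K the lowest Elane (2.25 CPM) with the highest Bcl2 (132 CPM) and Pmaip1 (158 CPM). Bcl2l11 did not keep the order in knockout, where 4L was lowest (42.3 CPM) and 4K next (42.8 CPM). Bax ran the other way, highest among wild-type clones in 2D (79.1 CPM) and 1A (67.2 CPM) and lowest among knockout clones in 4K (68.0 CPM). The part of maturation genes in the genotype differences was not tested beyond leaving out clones 1A and 2D, a step chosen after the data were seen. Without them 3 members were called, against 8.97% of all genes, and they were again Bbc3 (log2 fold change 0.79, adjusted p = 0.00163), Bax (0.36, adjusted p = 0.0122) and Bid (0.26, adjusted p = 0.00441). Bcl2 went to 0.44 (adjusted p = 0.103), Bcl2l11 to 0.18 (adjusted p = 0.164) and Pmaip1 to -0.08 (adjusted p = 0.817) in that fit, which for Bcl2l11 was over 1.5 times less.

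To compare genes with one another, levels were divided by the length of their annotated exons, which need not be the exons used by these cells. In wild type Bak1 was highest at 85.2 CPM per kilobase ± 6.42 (SD, n = 6), followed by Mcl1 at 66.5 ± 2.82, and their ranges did not overlap. Bax came next at 42.2 ± 4.22 CPM per kilobase, then Pmaip1 at 37.2 ± 13.3 and Bid at 32.5 ± 2.34. Pmaip1 spanned 19.0 to 52.5 CPM per kilobase, wider than the whole range of Bax and Bid, so the order of these neighbours is not set beyond their spread. A gap separated them from the remaining 5 members. Bcl2l1 was at 9.21 ± 1.53 CPM per kilobase, Bcl2 at 7.33 ± 2.33, Bbc3 at 7.00 ± 0.850, Bcl2l2 at 5.08 ± 1.65 and Bcl2l11 at 4.63 ± 0.723. Neighbours among these 5 overlapped. With the longest annotated transcript as length, Bid stood above Pmaip1 and Bcl2l11 above Bcl2l2, and Bcl2l1 and Bcl2l11 came out over 1.5 times higher, at 16.4 and 7.37 CPM per kilobase.

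The knockout order had the same first 5 genes, and below them Bbc3, at 12.7 ± 1.43 CPM per kilobase, and Bcl2, at 11.5 ± 1.82, stood above Bcl2l1 at 9.42 ± 0.682. This turned with the longest transcript as length, where Bcl2l1 was at 16.8, Bbc3 at 14.9 and Bcl2 at 14.6 CPM per kilobase in knockout. With that length the order within the first 5 genes turned as well. Knockout Bax, at 73.2, stood above Mcl1, at 65.6, and Bid, at 55.3, above Pmaip1, at 42.5. The summed level of the 10 members was 297 CPM per kilobase ± 11.2 in wild type and 320.1 ± 8.22 in knockout. Anti-apoptotic genes took 29.7% ± 1.18 of that sum in wild type and 28.6% ± 1.01 in knockout, effectors 43.0% ± 4.38 and 40.7% ± 2.96, and BH3-only genes 27.3% ± 3.77 and 30.7% ± 2.22 (n = 6 each). Each of these shares overlapped between genotypes.

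**Figure D3:**
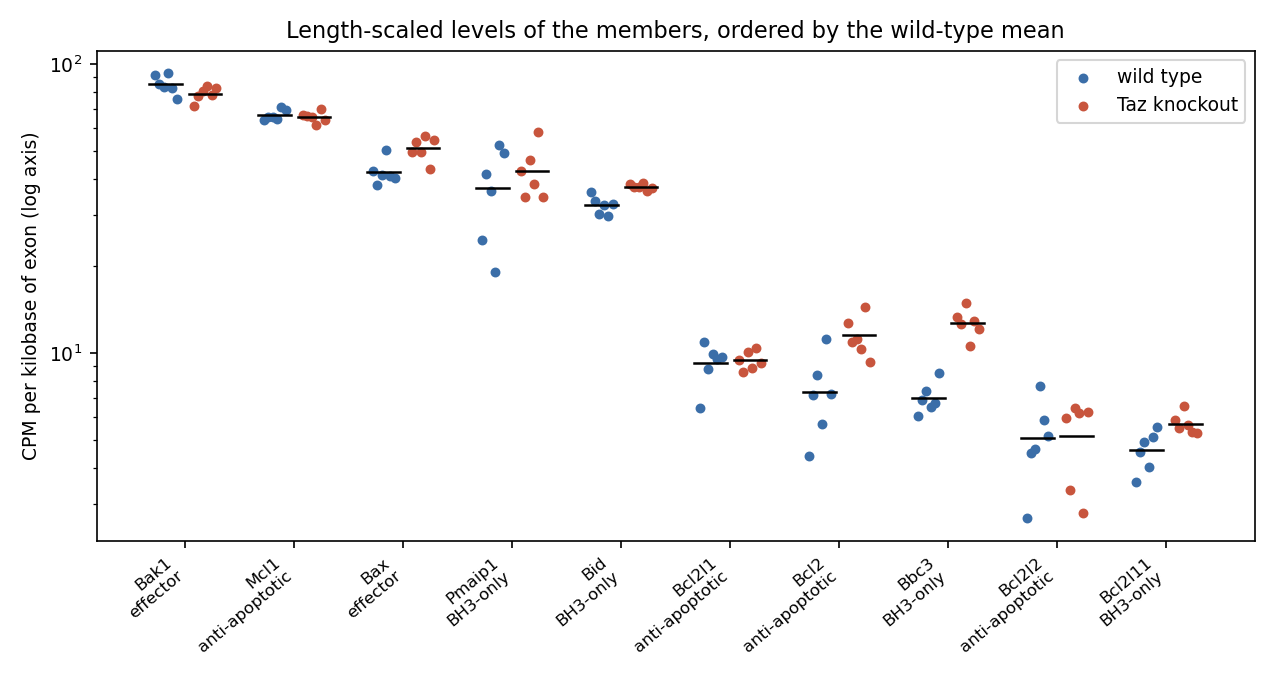
CPM per kilobase of annotated exon (vertical log axis) of each member in 6 wild-type and 6 Taz knockout clones, ordered by the wild-type mean, with a line at each mean. Bak1 and Mcl1 stand at the top and 5 members lie near or below 10 CPM per kilobase in wild type, where Bbc3 and Bcl2 have the largest offsets between genotypes.

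Ratios of the RNA of opposing members were taken in each library, without scaling for length. They do not measure the balance of the proteins. The log2 ratio of Bbc3 to Mcl1 CPM ran from -4.09 to -3.71 in wild type and from -3.23 to -2.83 in knockout, with no overlap. The ratio of Bax to Bcl2 went the other way on average, 0.04 ± 0.54 (SD, n = 6) in wild type and -0.38 ± 0.35 in knockout, with overlap. The highest wild-type ratios were those of 1A (0.74) and 2D (0.61). Only 2D stood apart in its neutrophil marker sum (1538 CPM), since that of 1A (115 CPM) lay within the knockout range. The difference of -0.42 went to -0.28 without 1A and to -0.10 without 1A and 2D. The ratio of Bcl2l11 to Bcl2 was -0.81 ± 0.30 in wild type and -1.19 ± 0.25 in knockout, and it overlapped as well. The Bbc3 to Mcl1 difference of 0.88 was 0.83 without 1A and 2D. It largely repeats the Bbc3 difference of 0.86, since Mcl1 differed by only -0.02.

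Clones of each title number were then compared as separate sets of 3. For Bbc3 the log2 fold change was 1.01 for number 3 against 1 (SE 0.13, adjusted p = 0.00888 by edgeR), 0.81 for 4 against 1 (adjusted p = 0.0308), 0.91 for 3 against 2 (adjusted p = 0.0183) and 0.71 for 4 against 2 (adjusted p = 0.0688). Bbc3 was the 1 member called in the first 3 pairs, where 1.57%, 0.508% and 0.719% of all genes were called and 0.99%, 0.33% and 0.423% were called as higher. In the last pair 0 members were called, against 0.262% of all genes (0.169% as higher) by edgeR. No member was called in all 4 pairs, as 0.203% of genes were. At an unadjusted p under 0.05 there were 6, 5, 2 and 2 members in the 4 pairs, in the order given, against 16.5%, 12.6%, 14.3% and 12.4% of all genes, with Bbc3 and Bid in each. Bid lay between 0.17 and 0.26 in the 4 pairs, Bax between 0.22 and 0.34 and Bcl2 between 0.50 and 0.81, all above 0. Bcl2l2 changed sign, from 0.41 and 0.36 against number 1 to -0.24 and -0.29 against number 2. The pairs share clones and are not independent. Within a genotype, edgeR called 0 genes between numbers 2 and 1 and 0 between 4 and 3, with 416 and 244 genes at an unadjusted p under 0.05, of which 0 were members.

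**Figure D4:**
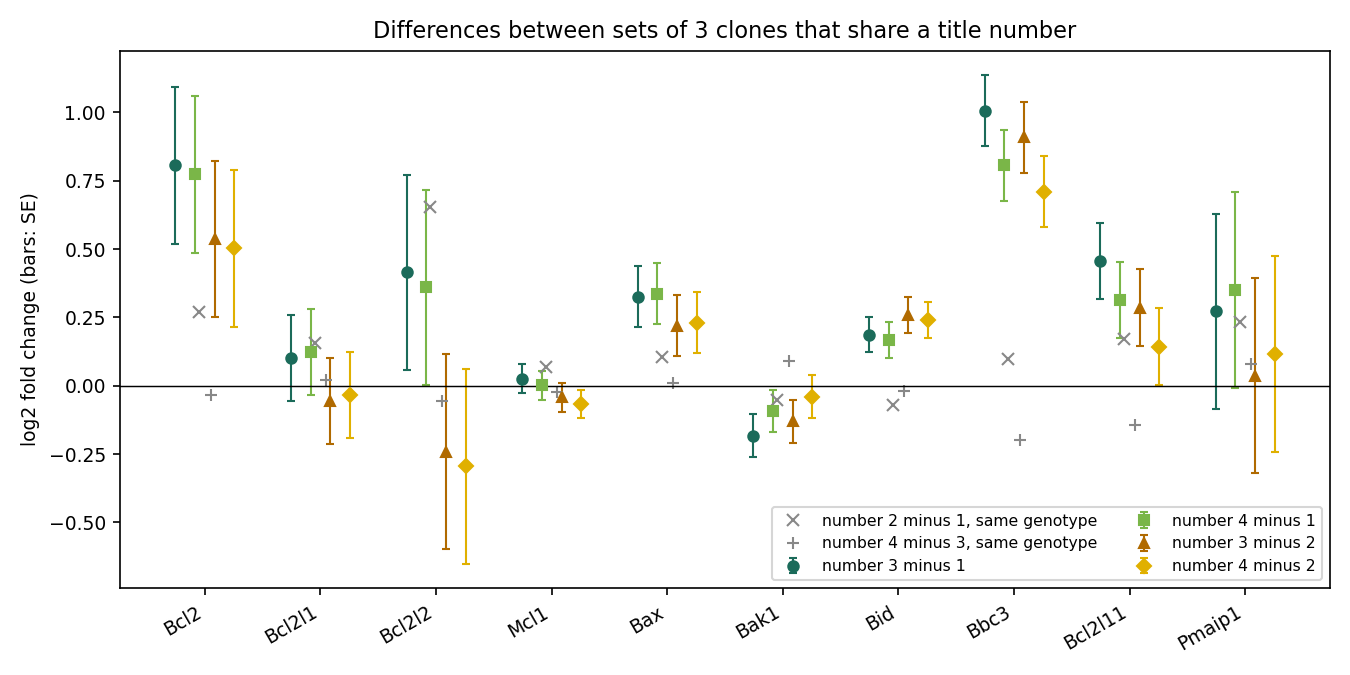
Log2 fold change (vertical axis, bars give SE) of each member between sets of 3 clones that share a title number, with 4 knockout-minus-wild-type pairs as coloured symbols and the 2 differences within a genotype in grey. Bbc3 lies between 0.71 and 1.01 in the 4 pairs while its within-genotype differences are 0.10 and -0.20.

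Promoter sequence is shown for Bbc3 and Bax, which rose, and for Bcl2l11, since p53, FOXO and ATF4-CHOP factors are known regulators of such genes. RefSeq start sites (GRCm38.p6) gave 14 windows for 9 members, each covering the 250 bases before a start. Capitals mark matches, on either strand, to the FOXO motif GTAAACA (Bbc3, Bcl2l11), the E-box CACGTG (Bax) and 1 p53 half-site (Bax, the upstream match). The Bbc3 window belongs to the middle of 3 starts and lies at chr7:16310011-16310260 on the plus strand. That of Bax lies at chr7:45466899-45467148 on the minus strand and that of Bcl2l11 at chr2:128125788-128126037 on the plus strand. All 3 are free of annotated exon. Bases just after the start were found in 0 of 4 annotated Bbc3 transcripts, 1 of 6 of Bax and 5 of 8 of Bcl2l11. The Bbc3 and Bcl2l11 windows shown are those that hold the FOXO match.
Bbc3: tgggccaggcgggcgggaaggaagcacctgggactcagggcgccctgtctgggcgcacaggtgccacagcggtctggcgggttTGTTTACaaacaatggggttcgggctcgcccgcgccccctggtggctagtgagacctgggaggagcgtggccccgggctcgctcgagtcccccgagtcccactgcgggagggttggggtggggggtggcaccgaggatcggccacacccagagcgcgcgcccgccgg
Bax: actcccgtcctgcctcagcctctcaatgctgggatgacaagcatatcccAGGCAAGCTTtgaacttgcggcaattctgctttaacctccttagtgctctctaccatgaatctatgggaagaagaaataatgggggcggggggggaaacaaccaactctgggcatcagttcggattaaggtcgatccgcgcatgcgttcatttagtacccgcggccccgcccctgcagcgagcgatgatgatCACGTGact
Bcl2l11: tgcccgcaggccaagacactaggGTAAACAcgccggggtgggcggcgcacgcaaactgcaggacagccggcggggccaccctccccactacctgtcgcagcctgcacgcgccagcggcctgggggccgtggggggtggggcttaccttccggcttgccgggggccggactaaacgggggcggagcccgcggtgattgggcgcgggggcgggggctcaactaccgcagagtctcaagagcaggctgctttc

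The FOXO motif was in 2 of the 14 windows, those shown of Bbc3 and Bcl2l11, and in 3.17% of 32841 promoter windows. The remaining Bbc3 and Bcl2l11 windows did not hold it. The E-box was in 2, Bax and the last Bbc3 start, and in 6.02% of all. A single p53 half-site was in 1 and in 7.13% of all. A full p53 site, taken as a pair of half-sites with a gap of 0 to 13 bases, was in 0 of the 14 and in 0.0639% of all. The ATF4-CHOP motif TGATGNAAN was in 0 of the 14 and in 3.43% of all. Bid, which also rose but is not shown, had 1 window, without a match to any of these motifs. A match is a run of letters and not a bound site, and sites outside these windows were not searched.

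Regulators named for these genes moved only in part. Of 14 tested transcription regulators of BCL-2 family genes, Ddit3, Atf4 and Mdm2 rose and E2f1 fell. Among all genes tested 3.99% were called as higher and 3.94% as lower. Ddit3, which encodes CHOP, went from 9.67 CPM ± 1.97 to 24.7 CPM ± 3.16 (n = 6 each). Mdm2, the ubiquitin ligase of p53 and itself a p53 target, went from 70.2 CPM ± 2.66 to 78.6 CPM ± 2.40 (log2 fold change 0.16, SE 0.03, adjusted p = 0.0127 by edgeR). E2f1, a cell cycle factor known to induce BH3-only genes, went from 60.5 CPM ± 1.55 to 52.8 CPM ± 2.09 (-0.20, SE 0.03, adjusted p = 0.00589). Atf4 rose by 0.57 (adjusted p = 0.0344), and its call was lost in 9 of 12 fits without 1 clone. Foxo3, which can induce Bcl2l11 and Bbc3, had 163 CPM ± 26.9 in wild type against 179 CPM ± 19.5 (adjusted p = 0.49 by edgeR). Trp53 had 253 CPM ± 7.48 against 256 CPM ± 6.01 (adjusted p = 0.789).

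Of 15 tested p53 targets outside the family, 7 rose and 0 fell, against 3.99% of all genes higher and 3.94% lower. The median log2 fold change was 0.32 and 13 were above 0, with Sesn1 lowest at -0.40 (adjusted p = 0.235 by edgeR). The 4 with the smallest adjusted p were Trp53cor1 (1.91), Ccng1 (0.47), Zmat3 (1.99) and Cdkn1a (0.73). The list was drawn up with results of these samples known and is not independent evidence of its direction.

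Genes that act on the member proteins, such as ligases of MCL-1 and the dynein light chains that bind BIM and BMF, had 0 of 10 called by edgeR. Among all genes 7.94% were called and 23.7% had an unadjusted p under 0.05, a level reached by 4 of these 10. The smallest adjusted p was that of Marchf5, a ubiquitin ligase of the outer mitochondrial membrane (62.4 CPM ± 1.86 in wild type, 67.7 CPM ± 2.78 in knockout, difference 0.12 on the log2 scale, adjusted p = 0.0577). Dynll2 (0.22, adjusted p = 0.107), Huwe1 (0.13, adjusted p = 0.182) and Btrc (-0.14, adjusted p = 0.187) followed. Of 6 tested death receptor genes, which feed into Bid, 0 were called by edgeR. An unadjusted p under 0.05 was reached by 1 of the 6, against the same 23.7% of all genes. The values nearest the threshold were those of Cflar, the caspase-8 inhibitor (0.16, adjusted p = 0.118), Fadd (0.12, adjusted p = 0.218), Tnfrsf1a (-0.34, adjusted p = 0.247) and Tradd (-0.09, adjusted p = 0.45).

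Downstream of the membrane, 3 of 11 genes reported here fell and 0 rose, against 3.94% and 3.99% of all genes. Aifm1, the apoptosis-inducing factor, fell from 131 CPM ± 5.36 to 112 CPM ± 6.48 (log2 fold change -0.23, SE 0.04, adjusted p = 0.00896 by edgeR), with no overlap between genotypes, and Casp9, the caspase of the apoptosome, from 42.4 CPM ± 1.16 to 37.5 CPM ± 2.25 (-0.18, adjusted p = 0.0331). Casp9 lost its call in 7 of 12 fits without 1 clone. Cycs, the cytochrome c gene, fell from 4.56 CPM ± 0.498 to 3.53 CPM ± 0.260 (adjusted p = 0.0492) and lost its call in 11 of 12. Cycs has many processed copies, and since reads with several alignments were not counted its level is uncertain.

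Of the other relatives of the family, 13 of 15 listed genes were matched and 9 were tested, of which 0 rose and 1 fell. Among all genes tested 7.94% were called in either direction. Bnip3, a mitophagy receptor with a BH3-like stretch, fell from 17.9 CPM ± 3.31 to 12.3 CPM ± 1.08 (log2 fold change -0.54, SE 0.12, adjusted p = 0.0158 by edgeR), and its genotypes did not overlap. Its homologue Bnip3l was at 70.7 CPM ± 5.80 and 59.9 CPM ± 5.28 (-0.24, adjusted p = 0.051). Bad, a BH3-only gene controlled by phosphorylation, had a wild-type level of 27.3 CPM ± 1.72 and a knockout level of 25.4 CPM ± 2.04 (adjusted p = 0.355). Bcl2l12 had 16.2 CPM ± 1.64 and 17.2 CPM ± 1.47 (adjusted p = 0.566). Bmf, Hrk, Bcl2l14 and Bcl2l15 were all below 3 CPM in every clone, and none passed. The effector relative Bok had at most 4 reads in a library, Bcl2a1b at most 3, Bik at most 1 and Bcl2l10 0. A count of 0 allows up to 0.158 CPM in the shallowest library. Bcl2a1b has near-identical copies, so its reads may have been left out as not unique.

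The genes most like the 3 called members over the 12 clones were taken by Pearson's r of log2 CPM among 9076 genes. For Bbc3 they were Ncor1 (r = 0.96, and 0.79 after each genotype was centred on its mean) and Trp53cor1 (0.96 and 0.58). For Bid they were Tmem68 (0.93 and 0.72), Eif3c (0.91 and 0.72) and Nop14 (0.91 and 0.70). For Bax they were Dgkg (0.96 and 0.93), Tcea1 (0.94 and 0.86) and Setd5 (0.94 and 0.88). The likeness of Bax kept nearly its full size within genotypes, whereas that of Bbc3 to Trp53cor1 rested in larger part on the genotype difference. All of these genes share the 12 libraries, and r is given as a description.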

How the data were processed

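Each clone's deposited table gives raw counts per Ensembl gene. STAR, HTSeq and edgeR are named with build mm9 in the submitters' processing notes, and versions and annotation release are not given in the sources used here. File naming states that counting ignored strand. The last lines of each table, which name no gene, held 48.1% to 49.9% of records, mostly reads aligned to several places (42.8% to 44.9%), and were left out. Symbols were matched for 32860 of 37583 identifiers from a gene name table and GENCODE M21 (GRCm38), which also gave exon lengths.

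Counts of all 12 clones were fitted by edgeR 4.0.16 in R 4.3.3 with TMM factors, filterByExpr by genotype and the quasi-likelihood F-test, with Benjamini-Hochberg adjustment over 11819 genes and calls at an adjusted p under 0.05. The SE is the absolute log2 fold change over the square root of F, and intervals are 95%. Intervals and the limit of 3 counts for a 0 cover counting error or the spread of these clones only. Named genes were the members, their relatives, Taz, up to 4 genes of each other list by adjusted p and the 3 genes most like each of the 3 members with the smallest adjusted p (mean CPM of at least 5, prior count 2). Elane, Foxo3, Trp53 and cell markers were named in addition after their values were seen. Members and lists were chosen with earlier results of these data known. In the list of factors downstream of mitochondria 2 genes, and among the genes most like Bbc3 1 gene, are not reported here, and the list's counts leave them out. On simulated counts with known changes in 11708 genes, the fit recovered 73% of 1.5-fold and 83% of 2-fold changes, with 3.7% false calls. Changes were placed only in genes with a mean above 5 CPM, and each clone was drawn independently. The simulation therefore cannot show the effect of a shared origin of clones. Smaller folds, such as those of Bid and Bax, were not simulated. Alternatives were DESeq2 1.42.0, limma 3.58.1 (voom), other size factors, no filter, thinning to 18970252 counts, sums by title number and leaving out clones.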

Additional observations from a re-analysis of the deposited data

Results flagged for a closer look

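In 2 of 80 groups of 6 clones examined, 1 clone stood apart from the rest by its gap to the nearest clone relative to the range (critical value 0.625), where chance alone gives about 1 in 20. None of the 10 members was among them. Dynll2 was at 135 CPM in wild-type clone 2D, with the next at 112 CPM. Zmat3 was at 3.09 CPM in wild-type clone 1B, with the next at 2.10 CPM.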

How the results depend on the processing

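No paired analysis was possible because the title numbers of the 2 genotypes are not shared. The number of members called as higher was 3, with 5 by DESeq2 (Bcl2 and Bcl2l11 in addition, against 12.4% of all genes) and 5 by voom with clones of a title number as a block (19.4% of all genes, block correlation -0.17), but 1 when counts were summed by title number (1.99%). Leaving out 1 clone gave 2 to 3. Members called as lower were 0 throughout. Bbc3 was called in every alternative run, with log2 fold changes from 0.79 to 0.93. Bid was called in all but the sums by title number (0.21, adjusted p = 0.089). Bax lost its call without the filter (0.27, adjusted p = 0.0817) and in those sums (0.29, adjusted p = 0.0673), and ran from 0.25 to 0.34 without 1 clone. Bcl2 passed by DESeq2 (0.65, adjusted p = 0.0106), voom (0.69, adjusted p = 0.0466) and blocked voom (0.69, adjusted p = 0.0078). Its SE was 0.191 by voom and 0.148 by blocked voom, where the negative block correlation lowers it. Without 1 clone Bcl2 ran from 0.54 to 0.81 and was called in 1 of 12 fits (adjusted p 0.0148 to 0.117 by edgeR). Bcl2l11 passed by DESeq2 (0.30, adjusted p = 0.0416) and blocked voom (0.31, adjusted p = 0.0207). Among the members and 29 other named genes followed through the alternatives, no called difference changed sign. The remaining named genes, such as Taz, the cell markers and the genes most like the called members, were not followed. Among members and relatives that were not called, signs turned without clones 1A and 2D for Bcl2l1 (-0.044) and Pmaip1 (-0.077), by voom without and with the block for Bcl2l15 (-0.13 and -0.14), and without 1 clone for Bcl2l1 (-0.055 to 0.084), Bcl2l2 (-0.11 to 0.18), Bmf (-0.23 to 0.25), Bcl2l13 (-0.024 to 0.035) and Bcl2l15 (-0.21 to 0.51). Over all genes, 472 were higher and 466 lower, with 800 and 830 by DESeq2, 271 and 280 without the filter, 1171 and 1123 by blocked voom, 158 and 116 in the sums, and 294 to 558 and 272 to 535 without 1 clone (4.78% to 8.66% of genes), lowest without 3I for higher and 3G for lower. With the longest transcript as length, anti-apoptotic genes took 28.4% in wild type and 27.3% in knockout. The cause of these shifts was not tested. Depth differed between genotypes, and thinning every clone to the shallowest library changed no call of a member.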
